A study of Mus musculus with 4 samples.

Results

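The cytosolic ribosome is built from ribosomal RNA and one copy each of most of its ribosomal proteins, and the genes of those proteins are the subject here. They were taken by name: protein-coding mouse genes whose symbol is Rps or Rpl with a number, together with Rplp0, Rplp1, Rplp2 and Rpsa. This gave 83 of the 55573 genes in the table, 32 for proteins of the small subunit and 51 for proteins of the large subunit. Another 6 symbols fit the name pattern but are not annotated as protein coding and were left out, Rps4l among them. RNA was sequenced from SmoWT cells, a mouse medulloblastoma of the Sonic Hedgehog subtype kept as floating neurospheres in Neurobasal medium with B27 supplement. Cells received GDC0449 at 0.1 µM for 24 h or the solvent DMSO for 24 h, with 2 libraries in each group. GDC0449, also called vismodegib, blocks Smoothened, the membrane protein that passes on the Hedgehog signal. Both groups carried the same genotype, Ptch1+/- and Trp53-/-, on C57BL/6, so the controls too lacked p53 and had 1 inherited defective copy of the Hedgehog receptor gene. The tumours arose spontaneously. The sources used here do not give whether the libraries came from 1 tumour or several, or whether replicates were grown apart. The p-values thus reflect the spread among these libraries alone, and that spread could be technical.

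Small subunit proteins help to decode the messenger RNA, and large subunit proteins frame the site where peptide bonds form and the tunnel through which the new protein leaves. In many cells the messages of ribosomal proteins are among the most abundant of all, and most begin with a run of pyrimidines, the 5′ terminal oligopyrimidine (TOP) tract, through which their translation responds to the kinase mTOR. In granule neuron progenitors, the cells this tumour resembles, Hedgehog signalling raises N-Myc, and Myc proteins are known activators of ribosome genes. Free ribosomal proteins such as Rpl5 and Rpl11 can bind Mdm2 and thereby stabilise p53, a route with no p53 to act on in these cells.

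The libraries held 20790030 and 20711391 reads in genes in the GDC0449 libraries and 20113419 and 16329721 in the DMSO libraries. Gli1, the Hedgehog reporter gene, was at 38.8 and 32.7 CPM (counts scaled to library size) in GDC0449 and 281 and 263 CPM in DMSO, a log2 fold change of -2.93 (edgeR adjusted p = 1.67e-36). Mycn was at 884 and 912 CPM in GDC0449 and 1333 and 1281 CPM in DMSO (log2 fold change -0.54, edgeR adjusted p = 1.63e-11). Of 6 tested progenitor and tumour genes, 3 were lower and 3 higher by adjusted p. The lower ones were Gli1, Mycn and Pax6, the last at a log2 fold change of -0.19 (edgeR adjusted p = 0.0450). The higher ones were Atoh1, Zic2 and Zic1. Their log2 fold changes were 0.81 (edgeR adjusted p = 6.60e-14), 0.38 (edgeR adjusted p = 3.31e-06) and 0.24 (edgeR adjusted p = 0.000906). Barhl1 was under 1 CPM throughout. The 3 microglia markers summed to 12 and 13 counts in GDC0449 and 13 and 23 counts in DMSO, with few counts also for the 3 endothelial markers (11 and 17 in GDC0449, 2 and 7 in DMSO) and the 3 fibroblast markers (10 and 17 in GDC0449, 12 and 3 in DMSO), and with Cdh5 and Lum at 0. Of the astrocyte markers Aqp4 was at 0 and the sum ranged from 72.5 to 74.4 CPM in GDC0449 and from 73.5 to 79.5 CPM in DMSO, nearly all of it Slc1a3. Oligodendrocyte markers summed to 78.8 and 78.9 CPM in GDC0449 and 63.2 and 63.1 CPM in DMSO. The part of these markers in the results below was not tested. In bulk RNA, fewer cells of a type and less RNA per cell cannot be told apart.

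The start of a gene bears on whether its message can carry a TOP tract. The annotated starts of some members and of the ribosomal scaffold gene Rack1 are therefore printed here. Each runs from 15 bases before the start to the 15th base of the transcript. The sequences are RefSeq's, on build GRCm38.p6, read 5′ to 3′ on the strand of the gene. Capitals mark the unbroken run of C or T that begins at the annotated start base. The first 5 begin with such a run, and the last 3 do not. In Rpl22l1 and Rps26 a C followed by at least 4 bases of C or T comes within 10 bases after the annotated start. Their printed starts thus do not show that these messages lack a tract. Where messages begin in these cells was not measured, so the printed start of Rplp0 does not show it either. The matches counted below rest on annotated starts alone.
Rpl15: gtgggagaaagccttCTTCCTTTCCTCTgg
Rpl28: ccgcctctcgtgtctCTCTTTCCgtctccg
Rps6: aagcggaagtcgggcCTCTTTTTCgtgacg
Rps18: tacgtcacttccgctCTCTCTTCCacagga
Rack1: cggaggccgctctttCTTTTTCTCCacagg
Rpl22l1: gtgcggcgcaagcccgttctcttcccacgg
Rps26: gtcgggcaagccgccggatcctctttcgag
Rplp0: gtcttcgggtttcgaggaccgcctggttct
Rpl15 lies at chr14:18270972-18271001 on the minus strand, Rpl28 at chr7:4792950-4792979 on the plus strand, Rps6 at chr4:86857353-86857382 on the minus strand and Rps18 at chr17:33955651-33955680 on the minus strand. Rack1 lies at chr11:48800345-48800374 on the plus strand, Rpl22l1 at chr3:28805493-28805522 on the plus strand, Rps26 at chr10:128626492-128626521 on the minus strand and Rplp0 at chr5:115559452-115559481 on the plus strand. Promoter entries were found for 63 of the 83 members. A start with C followed by at least 4 bases of C or T was found in 13 of these 63 genes (20.6%), against 813 of all 27025 genes with an entry (3.01%) and 0 of 69 genes for mitochondrial ribosomal proteins. Searching for the same letters on the gene's strand from 5 bases before to 10 bases after the start found them in 30 of 63 members (47.6%) and in 22.5% of all genes. By the start base alone, the median log2 fold change was -0.17 for the 13 genes with a match and -0.22 for the other 47 tested. By the wider search it was -0.23 for the 30 genes with a match and -0.22 for the other 30 tested. The order thus depended on the search, and whether these groups differ was not tested.

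Ribosomal protein messages were slightly lower as a body in GDC0449, and few moved by much. Of the 80 members that passed the filter on low counts, 1 was called lower and 0 higher at an edgeR adjusted p below 0.05 with a change of over 1.5-fold. Over all 15472 genes tested, that rule called 3.85% lower and 8.68% higher. With the adjusted p alone, 50 members fell, 1 rose and 29 did not pass, against 18.1% of all tested genes lower and 18.1% higher. A gene with many reads passes more easily, and of the 2432 other genes at 100 CPM or more 33.8% were lower by this rule. Among the 191 others at 500 CPM or more, 38.7% were lower. The share of members lower by this rule was 62.5%. The median log2 fold change of the members was -0.22, a 1.16-fold lower level, with the middle part of the genes between -0.30 and -0.11. The median was 0.01 for all tested genes, -0.07 for the others at 100 CPM or more and -0.06 for the others at 500 CPM or more. In 72 of 80 members the fold change was below 0.

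How far each library stood apart bears on these counts. Both GDC0449 libraries lay under both DMSO libraries for 55 of 80 members and above them for 3, and the groups overlapped for 22. Of all tested genes, 32.2% were lower and 33.6% higher without overlap, and of the others at 100 CPM or more 50.2% were lower. The members' median deviation from their own mean over the libraries was -0.08 and -0.13 on the log2 scale in GDC0449 replicates 1 and 2, against 0.16 and 0.06 in DMSO replicates 1 and 2. The libraries also differed within a group. The median member was lower in GDC0449 replicate 2 than in replicate 1 by -0.05 on the log2 scale, with 65 of 80 members below 0. In DMSO the median member was lower in replicate 2 than in replicate 1 by -0.09, with 66 of 80 below 0. Over all tested genes both of these within-group medians were 0.00 to 2 decimals. Without DMSO replicate 1 the members' median was -0.17 and 15 members passed lower by adjusted p alone. Without DMSO replicate 2 the median was -0.28 and 20 passed. The counts over all genes dropped as well, to 871 and 683 lower genes from these fits, against 2793 with all libraries. Without GDC0449 replicate 2 the members' median was -0.20. Of the 50 members lower with all libraries, some passed in each of the 4 fits that left out 1 library. Among them were Rps3, Rps3a1, Rps6, Rps7, Rps24, Rps27a, Rpl6, Rpl7, Rpl17, Rpl18, Rpl23 and Rpl34. Others passed in none of those fits, Rpl10, Rpl11, Rpl15 and Rpl35 among them, and the remaining members in some. Each of those fits left 1 library in a group, and the matching share over all genes was not taken.

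**Figure D1:**
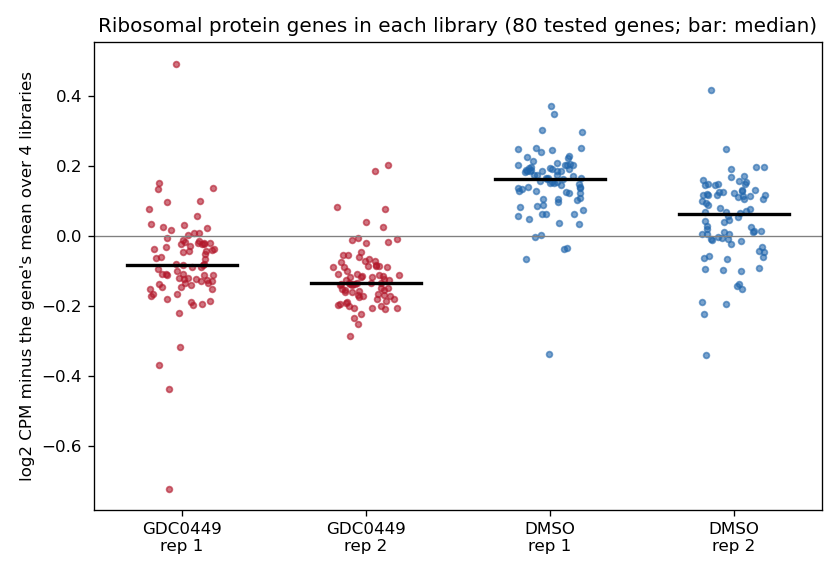
The y axis gives log2 CPM of each of the 80 tested ribosomal protein genes minus that gene's mean over the 4 libraries, and the x axis the libraries, GDC0449 in red and DMSO in blue. Each point is a gene, spread sideways at random, and the black bar is the median: -0.08 and -0.13 in GDC0449 against 0.16 and 0.06 in DMSO.

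As a share of all reads in genes, the members together took 3.78% and 3.71% in the GDC0449 libraries and 4.29% and 4.03% in the DMSO libraries. The groups did not overlap, and the mean was lower by -0.41 percentage points, a change of -9.86%. The exact two-sided permutation test gave p = 0.333, the smallest that 2 libraries against 2 allow. Small subunit genes took 1.49% and 1.46% in GDC0449 and 1.68% and 1.58% in DMSO. Large subunit genes took 2.29% and 2.25% in GDC0449 and 2.60% and 2.44% in DMSO. Both subunits were thus lower in each GDC0449 library than in either DMSO library. Of the deposited FPKM (reads scaled to gene length and depth), the members made up 10.2% and 9.91% in GDC0449 and 11.1% and 10.7% in DMSO.

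The 32 small subunit genes had a median log2 fold change of -0.25, with 21 lower and 1 higher by adjusted p alone. The 48 tested large subunit genes had a median of -0.19, with 29 lower and 0 higher. Members that host a small nucleolar RNA within the gene, 30 in number, had a median of -0.21, and the 50 other tested members had -0.22. All 4 members on the X chromosome, Rpl10, Rpl36a, Rpl39 and Rps4x, were below 0, with a median of -0.18. Across the 74 members at 50 CPM or more the fold change had a rank correlation of -0.24 with transcript length, 0.17 with GC content and -0.12 with the level in CPM. These are descriptions over genes that share the same 4 libraries.

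**Figure D2:**
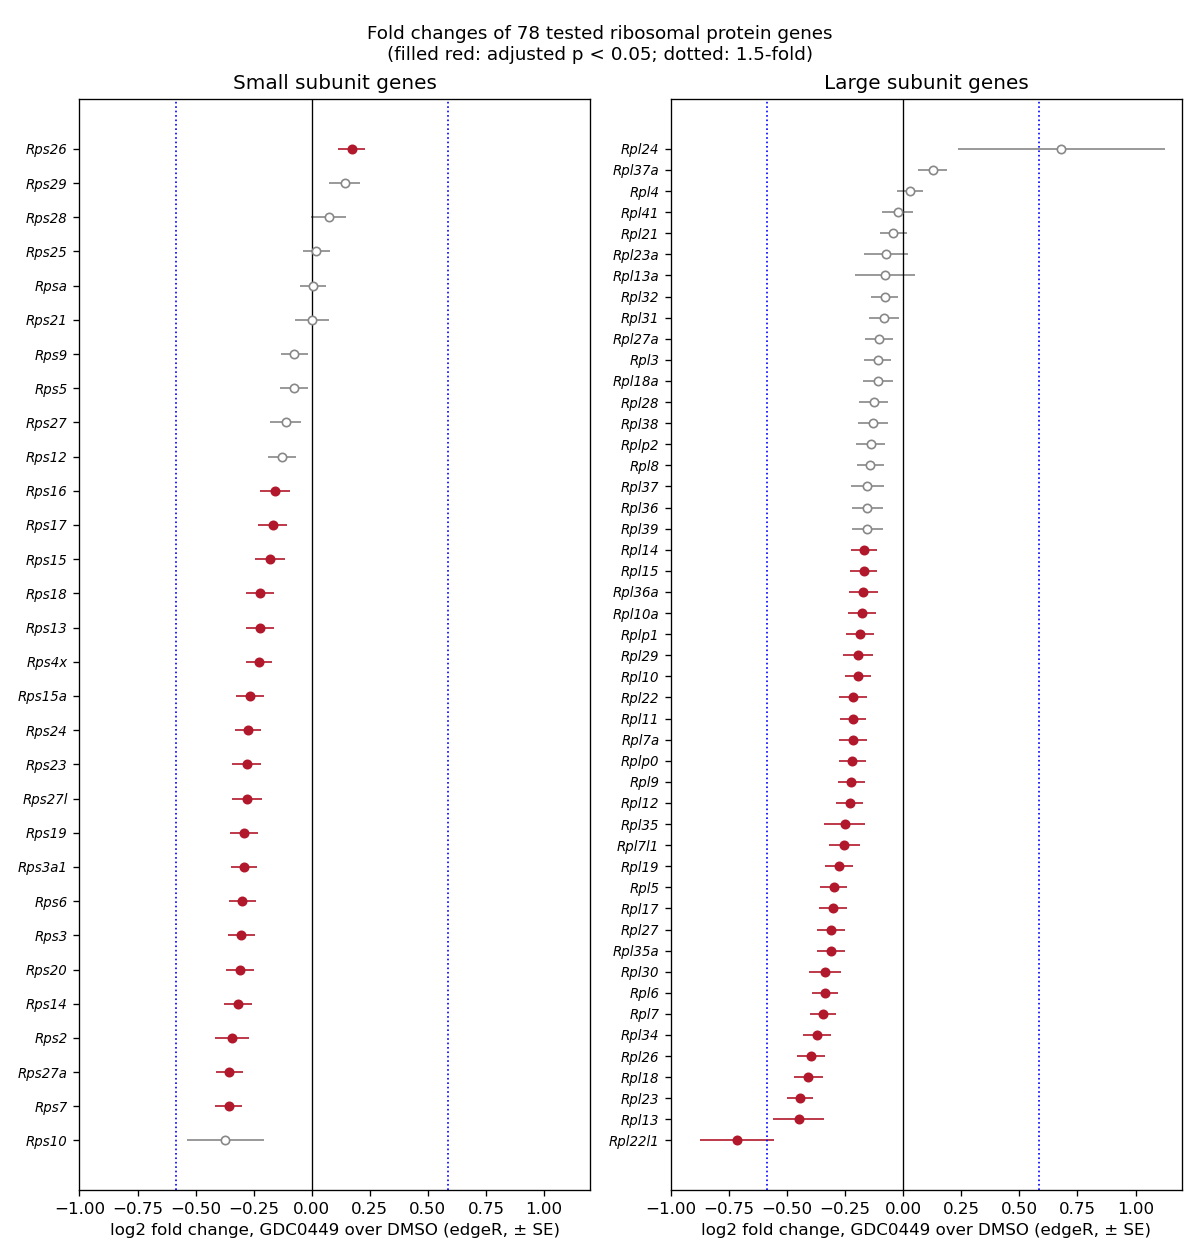
Each point is the edgeR log2 fold change of a tested ribosomal protein gene, GDC0449 over DMSO, with its standard error, for 30 small subunit genes at the left and 48 large subunit genes at the right. Filled red points passed the adjusted p and open grey points did not; dotted lines mark 1.5-fold, which Rpl22l1 alone passed with the adjusted p, at -0.72.

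Several small subunit genes with well-known roles fell by similar amounts. Rps6, the protein that S6 kinase phosphorylates, had 671 and 672 CPM in GDC0449, against 851 and 801 CPM in DMSO. Rps3, which lies at the entry of the mRNA channel, had 614 and 609 CPM in GDC0449, against 776 and 733 CPM in DMSO. Rps27a, made as a fusion with ubiquitin, had 496 and 503 CPM in GDC0449, against 644 and 635 CPM in DMSO. In all 3 genes both GDC0449 libraries were under both DMSO libraries. Their log2 fold changes were -0.30 ± 0.06 (SE, edgeR adjusted p = 3.07e-05) for Rps6, -0.30 ± 0.06 (edgeR adjusted p = 2.59e-05) for Rps3 and -0.36 ± 0.06 (edgeR adjusted p = 1.30e-06) for Rps27a. Rps14 and Rps19, whose loss causes anaemias in humans, had log2 fold changes of -0.32 and -0.29 with no overlap between groups. Rps14 missed the threshold without DMSO replicate 1, without a filter on low counts and on FPKM, and Rps19 without DMSO replicate 2 (edgeR adjusted p = 0.0513).

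Rps2, a protein of the mRNA entry site, was less even. It had 651 and 801 CPM in GDC0449, against 1035 and 805 CPM in DMSO. The groups just failed to overlap, since GDC0449 replicate 2 and DMSO replicate 2 were nearly equal. Its log2 fold change was -0.34 ± 0.07 (edgeR adjusted p = 0.000156), and it missed the threshold without DMSO replicate 1 (-0.15), DMSO replicate 2 or GDC0449 replicate 1. With all 4 libraries it also missed it with DESeq2 (adjusted p = 0.313), without a filter on low counts (edgeR adjusted p = 0.307) and on FPKM. Most of its 50-base windows recur in the transcripts of other genes, among them 71 pseudogenes, so its counts are uncertain.

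Rpsa, which also serves as a laminin receptor, was 1 of the small subunit genes that did not pass. It had 1210 and 1175 CPM in GDC0449, against 1238 and 1138 CPM in DMSO. The groups overlapped, and the log2 fold change was 0.01 ± 0.06, just below 0 with relative log expression scaling.

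Rps26, which contacts the messenger RNA upstream of the start codon, was the member that rose by adjusted p. It had 644 and 635 CPM in GDC0449, against 587 and 548 CPM in DMSO. Both GDC0449 libraries were above both DMSO libraries, with a log2 fold change of 0.17 ± 0.06 (edgeR adjusted p = 0.0155). The call was lost without any 1 library, at adjusted p of 0.0633 to 0.210, and with all 4 libraries without a filter on low counts and on FPKM. Rps29 had a log2 fold change of 0.14 and Rps28 of 0.07, with overlapping groups and edgeR adjusted p of 0.0994 and 0.488. Rps25, which takes part in initiation at viral internal entry sites, was at 0.02, and its sign turned without DMSO replicate 1, at -0.04.

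In the large subunit, Rpl23 was among the genes with the lowest fold changes. It is an Mdm2-binding protein, as are Rpl5, Rpl11 and Rpl26. Rpl23 had 438 and 436 CPM in GDC0449, against 584 and 606 CPM in DMSO. Rpl26 had 438 and 407 CPM in GDC0449, against 576 and 536 CPM in DMSO. Rpl5 had 765 and 733 CPM in GDC0449, against 944 and 900 CPM in DMSO. None of these 3 overlapped between groups. The log2 fold changes were -0.44 ± 0.06 (edgeR adjusted p = 8.78e-09) for Rpl23, -0.40 ± 0.06 (edgeR adjusted p = 2.92e-07) for Rpl26 and -0.30 ± 0.06 (edgeR adjusted p = 2.74e-05) for Rpl5. Without DMSO replicate 1 Rpl26 and Rpl5 missed the threshold, at adjusted p of 0.0506 and 0.0528. Rpl11, the partner of Rpl5 in the 5S particle, fell less, at -0.22 ± 0.06 (edgeR adjusted p = 0.00228), and was lost without any 1 library, at adjusted p of 0.0565 to 0.0932. On log2(FPKM + 1) Rpl11 was at -0.06 with overlapping groups (limma adjusted p = 0.751).

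Rpl18 had 412 and 394 CPM in GDC0449, against 571 and 499.9 CPM in DMSO. Rpl34 had 241 and 239 CPM in GDC0449, against 308 and 313 CPM in DMSO. Neither overlapped between groups, and their log2 fold changes were -0.41 ± 0.06 (edgeR adjusted p = 2.58e-07) and -0.37 ± 0.06 (edgeR adjusted p = 1.26e-06). Rpl18 missed the threshold without a filter on low counts (edgeR adjusted p = 0.0681). Rpl13 had a fold change as low, -0.45 ± 0.11 (edgeR adjusted p = 0.000760), but rested on 1 library. It had 386 and 734 CPM in GDC0449, against 824 and 706 CPM in DMSO. The groups overlapped, since GDC0449 replicate 2 was above DMSO replicate 2. Without GDC0449 replicate 1 its log2 fold change was -0.06 (edgeR adjusted p = 0.690). The deposited FPKM showed the same low library, with 187 and 332 in GDC0449 against 441 and 374 in DMSO.

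Other abundant large subunit genes were uneven. Rpl4, on the exit tunnel, had 1742 and 1693 CPM in GDC0449, against 1704 and 1666 CPM in DMSO. Its groups overlapped, with a log2 fold change of 0.03 ± 0.06. Rpl8 had 946 and 895 CPM in GDC0449, against 1075 and 957 CPM in DMSO, and missed the threshold (edgeR adjusted p = 0.0539). It passed with relative log expression scaling, with limma-voom and with the replicate block, at adjusted p of 0.0484, 0.0318 and 0.000112. Rpl7 fell, with 1262 and 1205 CPM in GDC0449 and 1545 and 1588 CPM in DMSO. Its log2 fold change was -0.34 ± 0.06 (edgeR adjusted p = 1.65e-06). Rpl10, near the peptidyl transferase centre, was at -0.20 ± 0.06 (edgeR adjusted p = 0.00566), a call lost also without a filter on low counts and on FPKM. Rpl37a was at 0.13 ± 0.06, higher without overlap, but did not pass (edgeR adjusted p = 0.102). It passed with upper-quartile scaling, with the 5 CPM filter and with the replicate block.

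The stalk that recruits elongation factors is made of Rplp0, Rplp1 and Rplp2. Rplp0 was the member with the most reads, with 2258 and 2177 CPM in GDC0449 and 2751 and 2415 CPM in DMSO. Rplp1 had 882 and 824 CPM in GDC0449 and 1026 and 917 CPM in DMSO. Rplp2 had 363 and 336 CPM in GDC0449 and 400.3 and 370 CPM in DMSO. All 3 stood lower in GDC0449 without overlap, with log2 fold changes of -0.22, -0.19 and -0.14, and Rplp2 missed the threshold (edgeR adjusted p = 0.0644). Rplp0 and Rplp1 passed with all libraries but not without DMSO replicate 1, at -0.13 and -0.11 (edgeR adjusted p = 0.174 and 0.303), nor without GDC0449 replicate 2 (edgeR adjusted p = 0.122 and 0.277), and Rplp1 not without DMSO replicate 2. Both also missed the threshold without a filter on low counts and on FPKM. Per length, in FPKM, Rplp0 and Rplp1 were the highest of all members, at 1213 ± 33.6 and 1106 ± 40.4 in GDC0449 and 1390 ± 124 and 1252 ± 92.7 in DMSO (SD, n = 2). Rpl7, Rpl19 and Rpl23a came next in FPKM.

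Some ribosomal proteins have a paralog, a second gene for a similar protein that in some cases can take its place. Rpl22l1, the paralog of Rpl22, was the member called lower with the fold threshold. It was scarce, with 115 and 128 counts in GDC0449 and 179 and 159 counts in DMSO, or 5.45 and 6.06 CPM against 9.10 and 9.86 CPM. Both GDC0449 libraries were under both DMSO libraries, with a log2 fold change of -0.72 ± 0.16 (edgeR adjusted p = 0.000291). Leaving out DMSO replicate 1 or 2 ended the call, with adjusted p of 0.0556 and 0.0731, as did log2(FPKM + 1), with a log2 fold change of -0.44 (limma adjusted p = 0.0683). Rpl22 itself had 293 and 301 CPM in GDC0449, against 334 and 356 CPM in DMSO, with a log2 fold change of -0.22 ± 0.06 (edgeR adjusted p = 0.00338). It missed the threshold without DMSO replicate 1 or 2 or GDC0449 replicate 1 (edgeR adjusted p of 0.0526 to 0.118), and without a filter on low counts (edgeR adjusted p = 0.0585). On log2(FPKM + 1) it was at -0.10 (limma adjusted p = 0.364). The coding sequences of the pair were identical at 66.9% of aligned bases. Whether the pair's fold changes differ from each other was not tested.

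Among the other pairs some paralogs had few or no counts. The counts leave out reads with more than 1 alignment, so 0 counts do not show that a gene is silent. Rpl10l and Rpl39l had 0 counts in every library, while Rpl39 had 127 and 117 CPM in GDC0449 and 135 and 138 CPM in DMSO. A floor of 3 counts over all 4 libraries allows up to 0.0385 CPM. Rpl3l, a muscle form of Rpl3, had 3 and 1 counts in GDC0449 and 3 and 2 counts in DMSO. These 3 genes were the members left out by the filter on low counts. Rps27l, a p53 target in other cells, had 164 and 176 CPM in GDC0449 and 199 and 215 CPM in DMSO, with no overlap between groups. From the fit, Rps27l was at -0.28 ± 0.06 (edgeR adjusted p = 0.000388) and Rps27 at -0.11 ± 0.07 (edgeR adjusted p = 0.185). The call of Rps27l was lost without DMSO replicate 1 or 2 or GDC0449 replicate 1 (edgeR adjusted p of 0.0572 to 0.117), without a filter on low counts and on FPKM. Rpl7l1 was at -0.25 ± 0.07 (edgeR adjusted p = 0.00217), and its call was lost without DMSO replicate 1 or 2 or GDC0449 replicate 2 (edgeR adjusted p of 0.0539 to 0.0700) and on FPKM. Coding identity was 76.2% for Rps27 and Rps27l, 73.2% for Rpl3 and Rpl3l, 85.0% for Rpl39 and Rpl39l, 84.7% for Rpl10 and Rpl10l and 87.7% for Rpl36a and Rpl36al. Rps4x, whose copy Rps4l is annotated as a pseudogene, was at -0.23 ± 0.06 (edgeR adjusted p = 0.00117), a call lost without DMSO replicate 1 or 2 or GDC0449 replicate 2 (edgeR adjusted p of 0.0565 to 0.0761) and on FPKM.

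The deposited FPKM offered a second reading of the same libraries. On log2(FPKM + 1) with limma, 21 of 80 members were lower and 0 higher by adjusted p alone, against 7.77% of all genes tested lower and 7.56% higher. The median of the members was -0.19, and 71 of 80 were below 0. Across the 80 members the fold changes from counts and from FPKM had a Pearson r of 0.73 and a rank correlation of 0.85. Both are computed from the same reads, so this compares ways of assigning reads, not independent measurements. Rps3 differed most among well-counted panel genes: its FPKM were 194 and 196 in GDC0449 and 156 and 226 in DMSO, with overlapping groups and a log2 fold change of 0.05, opposite in sign to its counts. Rps24 was at -0.27 from counts and -0.03 from FPKM. Rpl13a was at -0.08 from counts, which did not pass, and at -0.41 from FPKM, which passed (limma adjusted p = 0.0167).

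**Figure D3:**
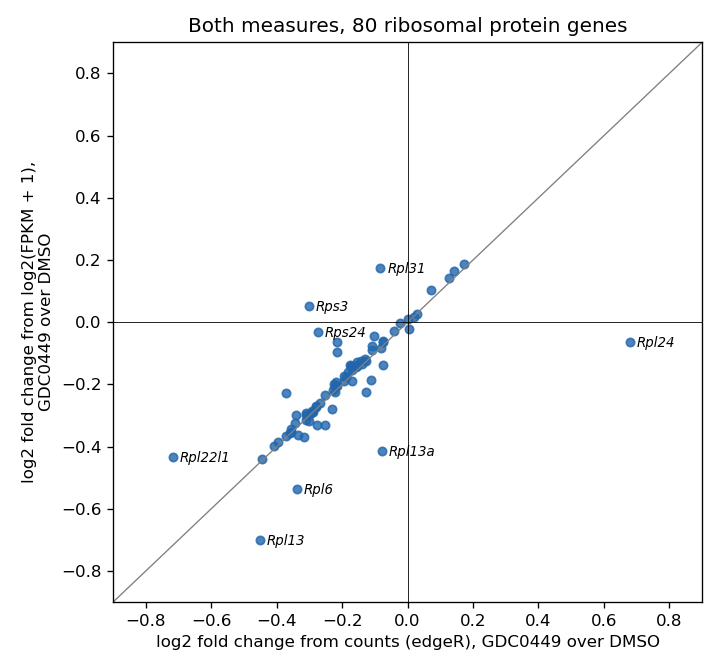
The x axis gives the log2 fold change from counts and the y axis that from log2(FPKM + 1), GDC0449 over DMSO, for 80 ribosomal protein genes; the grey diagonal marks equal values. Most genes lie near the diagonal at the lower left (r = 0.73), and Rpl24, Rpl13a, Rpl13, Rps3 and Rpl22l1 lie away from it.

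Levels from counts and from FPKM parted widely for a small set of genes. For each gene, CPM per kilobase of its principal transcript was divided by FPKM and set relative to the median gene. The members' median was 1.02, and 53 of 79 lay within 0.25 of 1. Their values ranged from 0.00160 to 7.16, so members departed in both directions. By this measure 6 of 79 were under 0.25, against 4.92% of all genes at 10 FPKM or more, the level of these members. With the length of all exons joined, the median was 0.69 and 8 of 79 were under 0.25. The share was then 9.18% of all genes at 10 FPKM or more and 10.2% of those at 1 FPKM or more. Of those 8, 7 were among the 11 members that share over 20% of their exonic bases with another annotated gene. The eighth, Rps24, shares none and was at 0.22 with joined exons and 0.57 with its principal transcript.

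**Figure D4:**
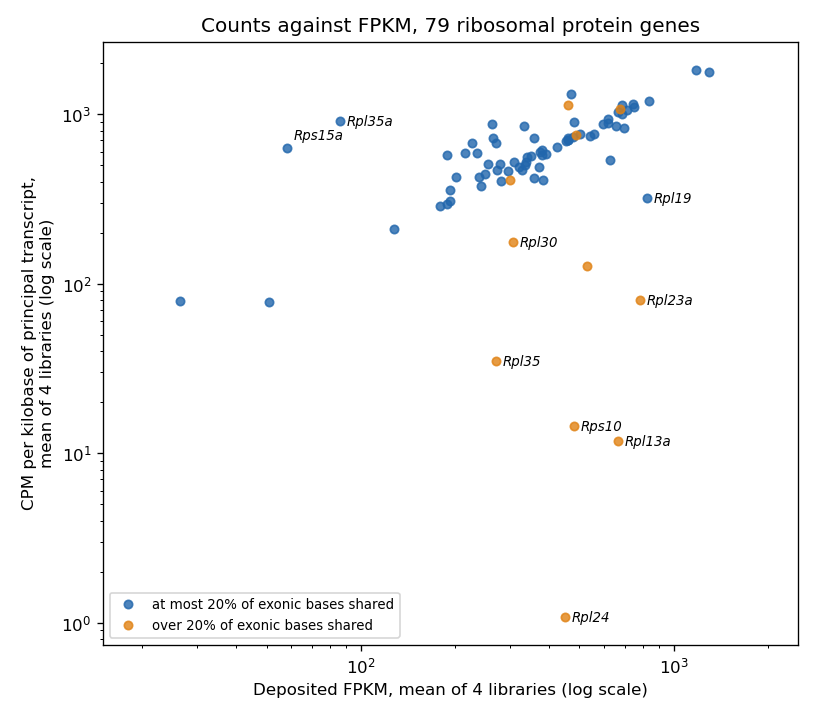
Mean CPM per kilobase of principal transcript (y axis, log scale) against mean deposited FPKM (x axis, log scale) over 4 libraries for 79 ribosomal protein genes. Genes with over 20% of exonic bases shared with another gene are orange; 7 of them, from Rpl30 down to Rpl24, lie below the band of most other genes, as does Rpl19 in blue.

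Rpl24 was the lowest. It had 21 and 17 counts in GDC0449 and 11 and 9 counts in DMSO, but an FPKM of 432 and 448 in GDC0449 and 449 and 470.5 in DMSO. Its counts were higher in GDC0449 without overlap, at a log2 fold change of 0.68 ± 0.45 (edgeR adjusted p = 0.245), while its FPKM were lower without overlap, at -0.06 (limma adjusted p = 0.516). The gene shares 47.0% of its exonic bases with Gm28037 on the same strand, which had 0 counts in every library and an FPKM of 448 and 466 in GDC0449 and 464 and 488 in DMSO. The counts of Rpl24 are uncertain for that reason, and its 2 measures differ in sign.

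Rps10 and Rpl13a also had few counts beside a high FPKM, and a same-strand partner at 0 counts. The counts printed for them are not scaled to library depth. Rps10 had 117 and 150 counts in GDC0449 and 165 and 128 counts in DMSO, with FPKM of 440 and 448 in GDC0449 and 541 and 499 in DMSO. Its same-strand partner RPS10-NUDT3 had 0 counts and 322 and 317 FPKM in GDC0449, against 389 and 358 FPKM in DMSO. Rpl13a, known in human monocytes for a role in silencing inflammatory messages, had 233 and 277 counts in GDC0449 and 258 and 199 counts in DMSO. In FPKM it was at 595 and 548 in GDC0449 and 758 and 764 in DMSO, and its same-strand partner Gm45713 had 0 counts in each library. So Rpl13a overlapped between groups in counts and was lower in both GDC0449 libraries in FPKM.

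Rpl23a, Rpl35 and Rpl30 overlap a gene on the opposite strand, Tlcd1, Wdr38 and D730044K07Rik. They share 62.3%, 66.2% and 24.8% of their exonic bases. Rpl23a had 1034 and 824 counts in GDC0449 and 1042 and 631 counts in DMSO, with FPKM of 748 and 739 in GDC0449 and 851 and 784 in DMSO. Rpl35 and Rpl30 were lower in GDC0449 on both measures, with log2 fold changes of -0.25 and -0.34 from counts and -0.33 and -0.36 from FPKM. Rpl35 missed the threshold in counts without any 1 library, with DESeq2 and without a filter on low counts, and Rpl30 without DMSO replicate 1. Because the strand setting of the counting is not given, the counts of these genes and of their antisense partners are uncertain.

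Copies elsewhere in the genome were weighed by the share of a member's 50-base windows that recur exactly in transcripts of other genes, pseudogenes included. The median share was 54.5%, from 0.0% to 98.6%, and 47 of 79 members had at least 50%. The rank correlation of this share with counts over FPKM was 0.01 with the principal transcript and -0.24 with joined exons. For exon sharing it was -0.35 and -0.42. Whether the deposited FPKM keep reads with more than 1 alignment is not given. If they leave them out too, this ratio cannot show the reads lost to copies, so that loss was not tested. Rps27, with the highest share, was at 1.13 of the median gene with its principal transcript. Reads with more than 1 alignment, which the counts leave out, made up 10.7% of reads in both GDC0449 libraries and 10.4% in both DMSO libraries. Together 289 pseudogenes with ribosomal protein names held 6283 and 6221 counts in GDC0449 and 6612 and 5770 counts in DMSO. The members held 786272 and 769044 counts in GDC0449 and 861970 and 657955 in DMSO. The pseudogene counts leave out reads with more than 1 alignment as well.

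**Figure D5:**
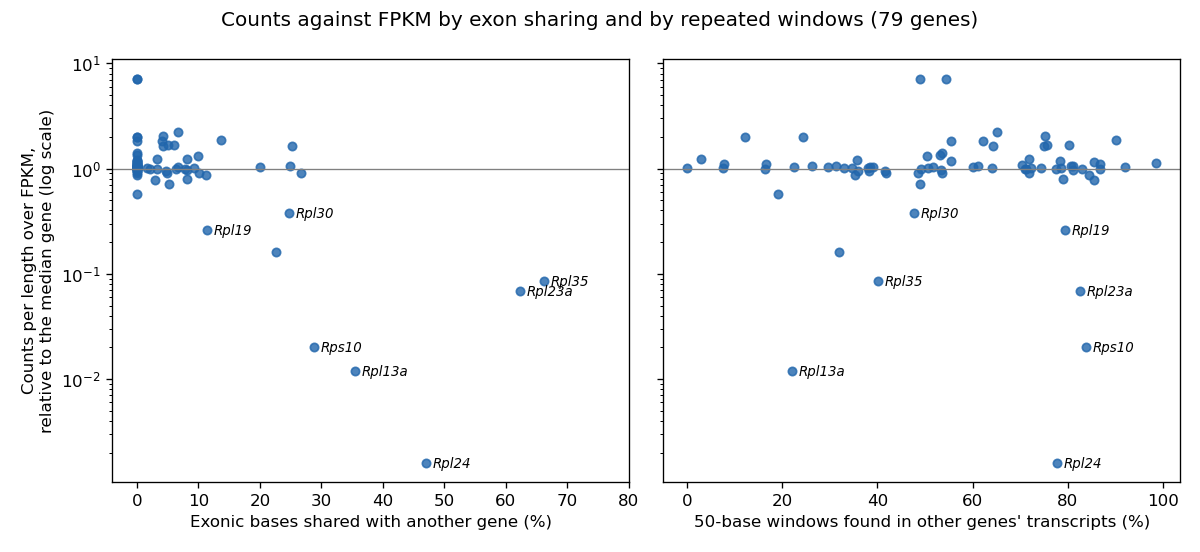
The y axis (log scale) gives counts per length over FPKM relative to the median gene for 79 members, against the share of exonic bases shared with another gene at the left and the share of 50-base windows found in other genes' transcripts at the right. The genes far below 1 lie at over 20% sharing at the left, apart from Rpl19, and are spread over the x axis at the right.

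Leaving out the 11 members with over 20% sharing gave 46 of 69 lower, 1 higher and a median of -0.22, a choice added after the data were seen.

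The neighbours of these genes in the translation machinery were read from lists. Of the ribosomal protein genes that the name rule misses, Rack1, the scaffold protein on the small subunit, fell by adjusted p at -0.21 ± 0.06 (edgeR adjusted p = 0.00529), though not without DMSO replicate 1 or 2 or GDC0449 replicate 2, without a filter on low counts or on FPKM. Fau and Rpl36al did not pass from counts, though Fau did with the replicate block (edgeR adjusted p = 0.0402). Rpl36al had few counts, 16 and 25 in GDC0449 and 22 and 28 in DMSO, at -0.52 (edgeR adjusted p = 0.282). Its FPKM were 211 and 217 in GDC0449 and 271 and 269 in DMSO. On log2(FPKM + 1) Rpl36al passed lower, at -0.33 (limma adjusted p = 0.0197). Of 19 other genes known for a TOP tract, 13 fell by adjusted p, 0 rose and 0 passed the fold threshold, with a median of -0.23. By adjusted p alone 18.1% of all tested genes and 33.8% of the genes at 100 CPM or more outside the members were lower. Among these the nucleolar protein gene Npm1 had 1677 and 1696 CPM in GDC0449 and 2255 and 2207 CPM in DMSO. The non-coding snoRNA hosts Gas5 and Snhg1 were at -0.52 and -0.42, and the elongation factor gene Eef1g at -0.31, while Eef1a1, with the most reads of the list at 10230 and 9624 CPM in GDC0449 and 11331 and 10193 CPM in DMSO, did not pass (edgeR adjusted p = 0.113).

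Of 12 genes for chaperones and assembly factors of ribosomal proteins, 5 fell by adjusted p and 0 rose, against 18.1% of all tested genes lower, with a median of -0.17. One was called with the fold threshold as well: Rrs1, which brings Rpl5, Rpl11 and the 5S RNA to the large subunit in yeast, had 63.8 and 65.0 CPM in GDC0449 and 104 and 101 CPM in DMSO (log2 fold change -0.67 ± 0.07, edgeR adjusted p = 1.67e-11). Tsr2, the chaperone of Rps26 in yeast, was at -0.39 ± 0.08 (edgeR adjusted p = 0.000103). Among 5 tested genes of ribosome stress and p53, 3 fell by adjusted p, against the same 18.1% over all genes, and Cdkn1a passed the fold threshold. Cdkn1a, for the cell cycle inhibitor p21, had 26.2 and 22.1 CPM in GDC0449 and 59.4 and 56.1 CPM in DMSO. Mdm2 was at -0.18 ± 0.06 (edgeR adjusted p = 0.0202).

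Mitochondrial ribosomal proteins belong to another ribosome, and their genes had a similar median. Of 77 tested, 33 fell by adjusted p and 0 rose, where 18.1% of all tested genes were lower and 18.1% higher. Their median log2 fold change was -0.19, against -0.22 for the cytosolic genes. The member called with the fold threshold, Mrps34, had a log2 fold change of -0.76 (edgeR adjusted p = 0.0125), with 1.85 and 5.25 CPM in GDC0449 and 7.58 and 4.22 CPM in DMSO, so its groups overlapped. Whether the cytosolic and mitochondrial sets differ was not tested.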

How the data were processed

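Trimming by Trim Galore, mapping to mm10 by HISAT2, counting by HTSeq 0.11.1 and a test by DESeq2 1.26.0 are named in the submitters' processing notes, per the labels. The deposited table holds raw counts and, beside them, FPKM that the authors computed from reads, gene length and depth, per the series design text. Neither the annotation release nor the strand setting is given in the sources used here. Rows naming no gene (6) were left out; reads in no gene, ambiguous or with more than 1 alignment made up 29.7% and 29.8% of reads in GDC0449 and 27.7% and 28.4% in DMSO. Symbols and coordinates came from GENCODE M21, which held 55480 of 55573 identifiers.

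Counts were tested with edgeR 4.0.16 (R 4.3.3; TMM, default expression filter, quasi-likelihood test, group as the only term), with Benjamini-Hochberg adjustment over all genes tested. CPM are TMM-scaled. The test was tried on simulated data first. FPKM of at least 1 in 2 libraries were tested as log2(FPKM + 1) with limma 3.58.1, a scale that understates changes of low genes. Alternatives were other scalings and filters, DESeq2 1.42.0, limma-voom, a replicate block and each library left out. Each standard error was taken from the fold change and its F statistic. Members, lists and tests were chosen with earlier results of these data known. Named genes are those called, the 6 highest and 6 lowest fold changes at 5 CPM or more, paralog pairs, the highest levels, the genes where counts and FPKM part most, the stalk, untested members and a panel of 13 genes with known roles. Some other genes were named for their values after these were seen. Paralog identity was taken from coding sequences, and repeats were searched in annotated transcripts in place of a genome. The search near the start base, not only at it, and the principal transcript length were added after the data were seen. Some genes are not reported here by name or drawn in the plot of fold changes.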

Additional observations from a re-analysis of the deposited data

How the results depend on the processing

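The direction of the members' median log2 fold change was kept in every fit: between -0.28 and -0.17 with 1 library left out. Members called lower with the fold threshold numbered 0 to 2 with 1 library left out and 0 on FPKM with either pseudocount. Members higher by adjusted p alone numbered 3 with upper-quartile scaling, with the 5 CPM filter and with the replicate block, and 0 without a filter, on FPKM and with any 1 library left out. Members lower by adjusted p alone numbered 24 without a filter, 21 on FPKM with either pseudocount and 15 to 35 with 1 library left out. Over all genes, calls with the fold threshold were 746 higher without a filter, 799 higher and 366 lower with the 5 CPM filter, 781 higher with DESeq2, 520 higher and 350 lower on log2(FPKM + 1), 661 higher on log2(FPKM + 0.1), and 500 to 1221 higher and 351 to 605 lower with 1 library left out. By adjusted p alone, all genes gave 1118 higher and 1059 lower without a filter, 1518 higher with DESeq2, 989 and 1016 on log2(FPKM + 1), 974 and 998 on log2(FPKM + 0.1), and 686 to 2112 higher and 683 to 1905 lower with 1 library left out. Other TOP genes called lower numbered 0 to 1 and mitochondrial ones 0 to 1 with 1 library left out, and mitochondrial ones 0 without a filter and with DESeq2. The summed share differed by -0.550 points with TMM-scaled sums, -0.847 on FPKM and -0.538 to -0.282 with 1 library left out. The median of counts over FPKM was 0.85 with the longest transcript, 0.76 against genes at 10 FPKM or more and 1.02 with the principal transcript. The cause of these shifts was not tested.

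Some signs turned. With 1 library left out, the log2 fold change of Rpl13a ranged from -0.211 to 0.0381, of Rpl23a from -0.276 to 0.166, of Rps25 from -0.0381 to 0.0665, of Rps28 from -0.103 to 0.265 and of Rpsa from -0.0619 to 0.0647. On log2(FPKM + 1) and log2(FPKM + 0.1), Rpl24 was at -0.0634 and -0.0635, Rps3, which passed lower from counts, at 0.0538 and 0.0542 and Rpsa at -0.0227 and -0.0227. Rpsa was also at -0.000799 with relative log expression scaling, -0.00172 without a filter and -0.0118 with DESeq2. Of the other values of 53 named genes, 534 kept direction and side of the threshold, 110 lost it and 23 passed it.

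Deviations of libraries with the same replicate number correlated at 0.04 over all tested genes, so the numbers were not taken as pairs. Of the 80 tested members, 65 in GDC0449 and 66 in DMSO were lower in replicate 2 than in replicate 1. Whether the members share a replicate effect was not tested. With the replicate block 63 members were lower and 3 higher by adjusted p alone. Of all 15472 genes 3534 were lower and 3327 higher with the block, against 2793 and 2794 without it. Depth limits most the tested members under 10 CPM, Rpl24, Rps10 and Rpl22l1, and the 3 members left out by the filter.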
